A study of Mus musculus with 4 samples.

Results

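The genes described here are 9 components of the ErbB growth factor pathway, chosen by gene symbol in the deposited count table: the receptors Egfr, Erbb2, Erbb3 and Erbb4, the ligands Nrg1 and Hbegf, the shedding enzymes Adam17 and Adam19, and the phosphatase gene Ptpn11. All 9 were among the 23337 gene rows, and all 9 passed the filter on low counts that left 14316 genes. The tissue was the cardiac cushion, the swelling of the outflow tract and atrioventricular canal that becomes valve, dissected from C57BL/6 mouse embryos at embryonic day 14.5. One group of 2 libraries came from wildtype embryos and one group of 2 libraries from Nfatc1Cre;Brg1F/F embryos, in which Cre made from the endocardial gene Nfatc1 deletes the floxed gene of Brg1 (Smarca4), the motor subunit of SWI/SNF chromatin remodellers. Cushions were picked by the GFP of a Cre reporter, and the labels do not say whether the wildtype embryos carried Cre or floxed alleles, or how many embryos made up a library. The deletion is limited to the Nfatc1-Cre lineage, and the dissected tissue also held other cells.

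ErbB receptors are tyrosine kinases that signal as dimers. HB-EGF, the product of Hbegf, binds EGFR and ERBB4, whereas neuregulin-1, the product of Nrg1, binds ERBB3 and ERBB4; ERBB2 has no known ligand of its own and acts as a partner, and ERBB3 has weak kinase activity and depends on a partner. ADAM17 releases HB-EGF and ADAM19 processes neuregulins. SHP2, the product of Ptpn11, carries the signal from activated receptors to Ras. In mouse embryos, neuregulin from the endocardium acts on ERBB2 and ERBB4 of the myocardium, loss of Erbb3 or Adam19 impairs the cushions, and loss of Hbegf, Adam17 or Egfr function gives enlarged semilunar valves.

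The receptors are paralogs, so the stretch that encodes their catalytic loop, among the best conserved in a kinase, is shown to let a reader see how far their transcripts differ. Each sequence is the coding strand from GENCODE M21 transcripts on GRCm38 (mm10), 54 bases long and wholly within exon 21 of the transcript used, and capitals mark bases that differ from Egfr.
Egfr: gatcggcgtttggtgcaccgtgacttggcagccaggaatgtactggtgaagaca
Erbb2: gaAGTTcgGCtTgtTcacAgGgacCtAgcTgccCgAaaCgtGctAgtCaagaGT
Erbb3: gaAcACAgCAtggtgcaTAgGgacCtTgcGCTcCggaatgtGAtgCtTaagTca
Erbb4: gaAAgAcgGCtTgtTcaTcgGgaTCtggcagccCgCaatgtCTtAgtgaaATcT

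These lie at chr11:16904323-16904376 (plus strand) for Egfr, chr11:98434232-98434285 (plus) for Erbb2, chr10:128572518-128572571 (minus) for Erbb3 and chr1:68080724-68080777 (minus) for Erbb4. Erbb2, Erbb3 and Erbb4 differed from Egfr at 21, 20 and 19 of the 54 bases, and the closest receptor pair, Erbb2 and Erbb4, differed at 16. The zinc-binding site of the metalloproteases is shown for the same purpose, with capitals at bases that differ between Adam17 and Adam19. It is 33 bases long and lies in exon 12 of Adam17 (chr12:21336732-21336764, minus) and in exon 11 of Adam19 (chr11:46125050-46125082, plus).
Adam17: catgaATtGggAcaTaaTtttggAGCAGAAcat
Adam19: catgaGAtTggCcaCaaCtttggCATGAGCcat

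Adam17 and Adam19 differed at 13 of these 33 bases. Over whole annotated transcripts, Erbb2, Erbb3, Erbb4 and Hbegf shared 0 stretches of 30 bases with the transcripts of any other gene. Transcripts were compared in their own orientation, so matches to an opposite strand are not in this count or in the shares that follow. Egfr shared 0.932% of its distinct stretches, Nrg1 0.0382%, Adam19 0.423%, Ptpn11 0.213% and Adam17, the highest, 3.38%. No receptor shared such a stretch with another receptor; read length and the strand setting of the counting are not stated in the labels. By position, 311 bases of Adam17 exons overlap Iah1 on the opposite strand, which had 150 to 264 reads per library. Exons of Nrg1, Adam19 and Erbb2 also overlap opposite-strand genes that have no row in the table, over 482 bases for Nrg1 (Gm26578), 587 and 480 for Adam19 (Gm16033 and Gm16034) and 9 for Erbb2 (Mien1).

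Reads in genes numbered 14104458 to 22426537 per library, and 3 reads, the limit that a count of 0 allows, correspond to 0.134 to 0.213 reads per 1000000 gene reads (CPM); such limits and the exact 95% Poisson intervals below cover counting error only. Where a value is given for each library, replicate 1 comes first. Smarca4 was not lower in the libraries labelled mutant: it was at 251 and 231 CPM in the wildtype libraries against 282 and 239 CPM in the mutant ones, so the genotype labels are not checked by the whole-gene count. Y-linked Ddx3y had 0, 28, 0 and 3384 reads in wildtype replicates 1 and 2 and mutant replicates 1 and 2, and Xist measured 13.3 CPM in mutant replicate 2 against 2047 to 2659 CPM elsewhere. Replicate pair 2 thus differs in the sex of the embryos as well as in genotype. Endocardial markers were present (10 of 10 tested, summed 1301 to 1401 CPM), as were mesenchymal ones (9 of 9, 6760 to 7878 CPM). Cardiomyocyte markers were abundant, with 12 of 12 tested and sums of 73620 and 65620 CPM in the wildtype libraries against 58480 and 63360 CPM in the mutant ones. Of these sums, Ttn alone held 37500 and 34650 CPM in the wildtype libraries and 29550 and 31330 CPM in the mutant ones. The marker sums are not divided by gene length, so they do not measure the relative content of cell types.

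Per kilobase of exon (RPKM, the CPM divided by exon length), the 9 genes spanned a wide range in wildtype cushions. Adam19 stood highest at 30.3 ± 1.41 RPKM (SD, n = 2), followed by Ptpn11 at 23.6 ± 2.35, Erbb2 at 16.8 ± 1.41, Adam17 at 11.5 ± 0.217, Erbb4 at 7.82 ± 0.497, Hbegf at 4.80 ± 1.24, Egfr at 2.11 ± 0.192, Erbb3 at 2.02 ± 0.134 and Nrg1 at 0.740 ± 0.108. The ranges over all 4 libraries of neighbours in that order overlapped for Adam19 and Ptpn11, for Erbb4 and Hbegf, and for Egfr and Erbb3; the other neighbours were apart in every library. Length depends on the isoforms used: with the longest transcript in place of all exons, the wildtype level was 18.5 RPKM for Adam17, 8.02 for Hbegf and 1.42 for Nrg1, and Adam17 and Erbb2 exchanged places.

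**Figure D1:**
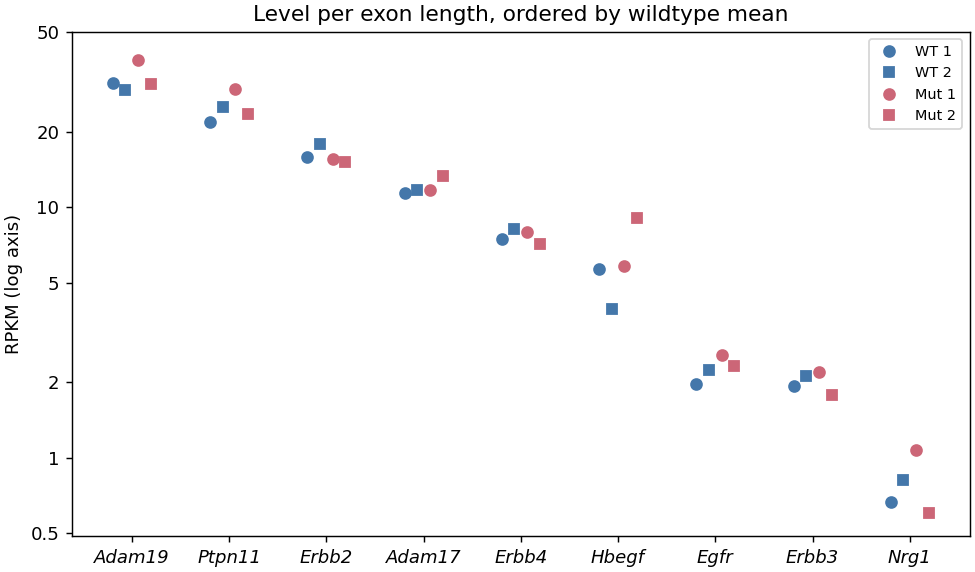
Level per exon length (RPKM, log axis) of the 9 genes in each of 4 libraries, ordered by the wildtype mean; blue is wildtype, red is mutant, circles are replicate 1 and squares replicate 2. Adam19 lies at 29.3 to 38.7 RPKM and Nrg1 at 0.600 to 1.08 RPKM, and Hbegf shows the widest spread, 3.92 to 9.03 RPKM.

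Among the receptors, Erbb2 and Erbb4, the neuregulin pair of the myocardium, made up most of the transcripts per length. Erbb2 took 58.2% and 58.7% of the summed receptor RPKM in wildtype and 55.0% and 57.4% in mutant replicates 1 and 2. Erbb4 took 26.9% to 28.2% and Erbb3 6.74% to 7.74% over the 4 libraries. Egfr took 7.26% and 7.39% in wildtype and 9.06% and 8.81% in mutant libraries. The ratio of Erbb2 to Erbb4 RPKM was near constant, 1.95 to 2.19 over the 4 libraries. In bulk tissue, fewer cells of a type and less RNA per cell cannot be told apart.

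The comparison of mutant with wildtype asked whether these transcripts differ after loss of Brg1 in Nfatc1-Cre cells. None of the 9 passed edgeR's quasi-likelihood test at an adjusted p of 0.05 over all 14316 genes: the count was 0 of 9, where 0.0629% of all tested genes passed. The count was also 0 by DESeq2 (0.426% of tested genes) and 0 with the replicate number as a block (0.887%). The authors' deposited table has 0 of the 9 past an adjusted p of 0.05, where 0.374% of its gene rows passed. At an unadjusted p under 0.05, 1 of 9 passed, Hbegf, against 5.78% of tested genes by edgeR (3.88% higher in the mutant, as Hbegf was, and 1.9% lower), 4.04% by DESeq2 and 6.29% with the block. The mutant and wildtype values did not overlap for 4 of 9, against 33.2% of tested genes: 3 were higher (17% of tested genes) and 1 lower (16.3%). The median log2 fold change of the 9 was 0.18, and that of all tested genes was -0.0027.

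**Figure D2:**
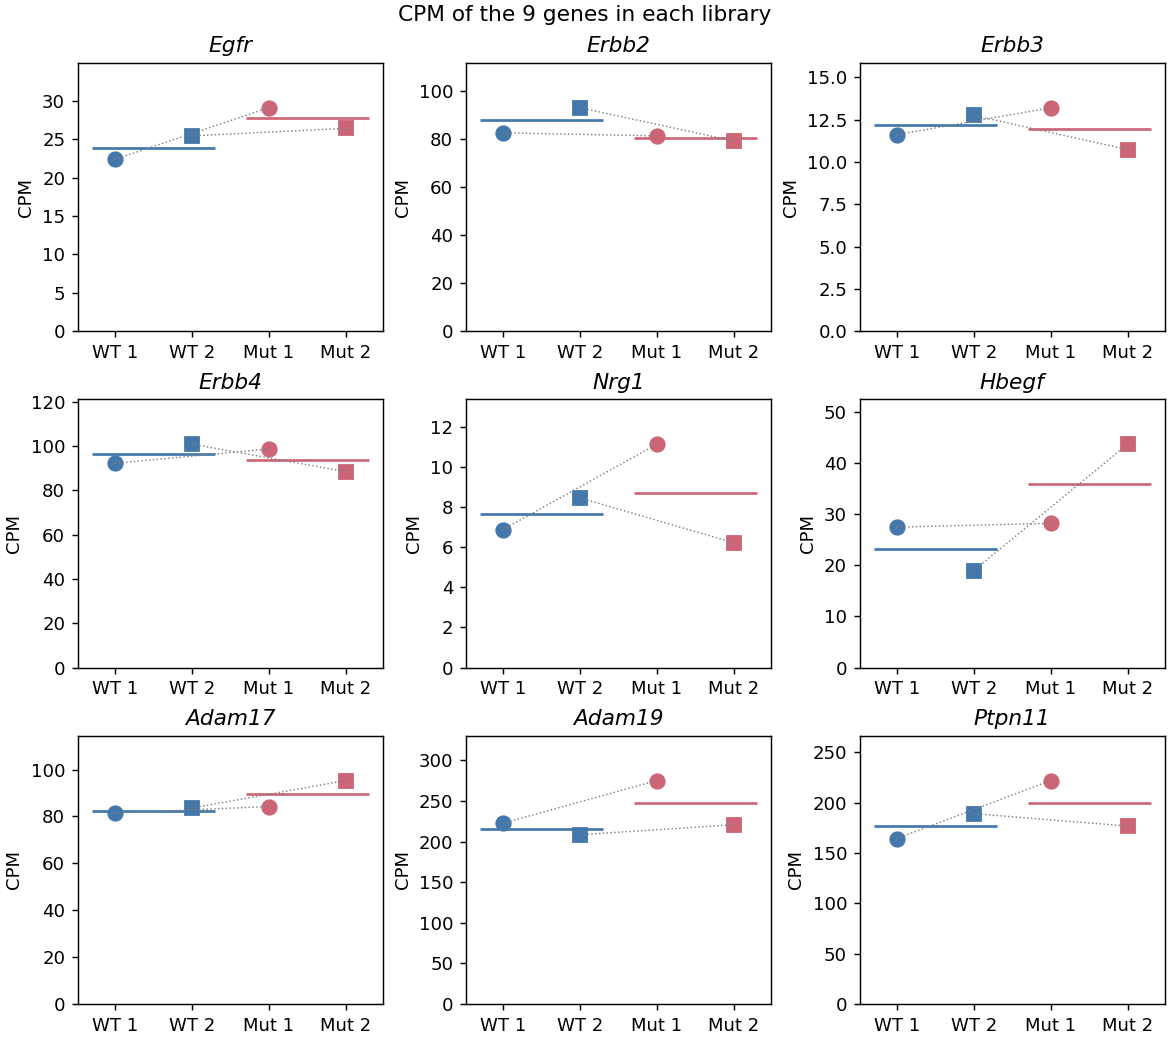
CPM of each of the 9 genes in wildtype (WT, blue) and mutant (Mut, red) libraries, with a horizontal line at each group mean and dotted lines joining libraries of the same replicate number; each panel starts at 0. Hbegf ranges from 18.9 to 43.6 CPM, and Nrg1 is highest in mutant replicate 1 at 11.1 CPM and lowest in mutant replicate 2 at 6.22 CPM.

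Of the ligands, Hbegf had the largest difference of the 9. Hbegf (ENSMUSG00000024486; chromosome 18, 36504927 to 36515805, minus strand) encodes the membrane precursor of HB-EGF. It was at 27.4 and 18.9 CPM in the wildtype libraries against 28.2 and 43.6 CPM in the mutant ones. Wildtype replicate 1 and mutant replicate 1 lay side by side, with overlapping Poisson intervals of 25.1 to 29.9 and 26.0 to 30.4 CPM, and the difference came from replicate pair 2. The log2 ratio was 0.04 in pair 1 and 1.20 in pair 2. The group means were 23.2 ± 6.01 and 35.9 ± 10.9 CPM (SD, n = 2 each), so the difference of means was close to the spread between replicates. The fitted fold was 1.54, a log2 fold change of 0.62 ± 0.25 (SE) with a 95% interval of 0.06 to 1.18. Its unadjusted p was 0.0325 by edgeR and its adjusted p 0.783. The authors' deposited table gives Hbegf 0.62 as mutant over wildtype, with an adjusted p of 0.533.

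Which mutant library was kept changed the Hbegf call. Without mutant replicate 1, the log2 fold change of Hbegf was 0.91 and it passed, with an edgeR adjusted p of 3.904e-04; 180 genes passed in that fit, where the lone mutant library, replicate 2, is assumed to vary like the wildtype group. Leaving out mutant replicate 2 gave 0.28 (adjusted p = 0.572), leaving out wildtype replicate 1 gave 0.92 (0.838) and leaving out wildtype replicate 2 gave 0.38 (0.956). Mutant replicate 2 held nearly all Y-linked reads (Ddx3y 3384, against 28 in wildtype replicate 2 and 0 in the other libraries), and the part of sex in the Hbegf values cannot be told apart from genotype in pair 2. Of 12 leukocyte markers, all tested, 1 (Ptprc) was higher past the threshold by edgeR, where 0.0629% of all tested genes passed in either direction. The count was 2 by DESeq2 (0.426% of tested genes) and 4 with the replicate block (0.887%). At an unadjusted p under 0.05 by edgeR, 10 were higher, against 3.88% of tested genes. Lyz2 (adjusted p = 0.979 by edgeR) had overlapping groups. The summed level of the 12 was 149 and 146 CPM in the wildtype libraries against 216 and 251 CPM in the mutant ones. Hbegf is also expressed by macrophages; the part of leukocytes in its values was not tested.

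Nrg1 (ENSMUSG00000062991; chromosome 8, 31814551 to 32884029, minus strand), which encodes neuregulin-1, was the lowest of the 9 per length. It was at 6.87 and 8.46 CPM in the wildtype libraries (129 and 134 reads) against 11.1 and 6.22 CPM in the mutant ones (253 and 88 reads). The mutant libraries enclosed both wildtype ones, and their Poisson intervals, 9.81 to 12.6 and 4.98 to 7.66 CPM, did not meet. The log2 ratio was 0.69 in pair 1 and -0.44 in pair 2. The fitted log2 fold change of Nrg1 was 0.20 ± 0.29, with an interval of -0.45 to 0.85 and an edgeR adjusted p of 0.979; it became -0.30 when mutant replicate 1 was left out and 0.55 when mutant replicate 2 was. The mutant libraries differed by 0.83 on the log2 scale, a gap that 5.32% of tested genes reached, where the median gap was 0.22. Nfatc1, the endocardial gene that drives the Cre, had 44.3 and 55.2 CPM in the wildtype libraries against 53.0 and 34.5 CPM in the mutant ones, and was likewise lowest in mutant replicate 2. The endocardial markers did not all share that order: Vwf and Cdh5 were also lowest there, whereas Emcn and Tek were highest in mutant replicate 2, at 63.1 and 302 CPM, and Npr3 was low in both mutant libraries (log2 fold change -0.88; edgeR adjusted p = 0.0654, or 0.00646 with the replicate block). The 10 markers summed to 1364 and 1401 CPM in the wildtype libraries against 1301 and 1335 CPM in the mutant ones. The part of endocardial RNA in the Nrg1 values was not tested.

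The 2 ligands thus differed between the pairs in opposite ways: the log2 ratio of pair 1 exceeded that of pair 2 by 1.13 for Nrg1, and for Hbegf the same difference was -1.16. Differences at least this large were found in 4.67% and 4.16% of tested genes. The ratio of Hbegf to Nrg1 RPKM was 8.55 and 4.79 in wildtype and 5.42 and 15.0 in mutant replicates 1 and 2, so its groups overlapped.

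The receptor Egfr (ENSMUSG00000020122; chromosome 11, 16752203 to 16918158, plus strand) was at 22.4 and 25.4 CPM in the wildtype libraries against 29.1 and 26.4 CPM in the mutant ones. Both mutant libraries lay above both wildtype ones, but the nearest, 25.4 and 26.4 CPM, had overlapping Poisson intervals of 23.0 to 28.0 and 23.8 to 29.2 CPM. Its log2 fold change was 0.22 ± 0.16 with an edgeR adjusted p of 0.962.

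Erbb2 (ENSMUSG00000062312; chromosome 11, 98412470 to 98437716, plus strand) was at 82.5 and 93.0 CPM in the wildtype libraries against 81.3 and 79.2 CPM in the mutant ones. It was the member of the 9 whose mutant libraries both lay below the wildtype ones, by a narrow margin. The log2 fold change of Erbb2 was -0.13 ± 0.13, with an interval of -0.43 to 0.17 and an edgeR adjusted p of 0.979.

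Erbb4 (ENSMUSG00000062209; chromosome 1, 68032186 to 69108059, minus strand) was at 92.2 and 101 CPM in the wildtype libraries against 98.7 and 88.5 CPM in the mutant ones, with overlapping groups and a log2 fold change of -0.04 ± 0.13. The interval of Erbb4 was -0.34 to 0.25. Erbb2 and Erbb4 are the neuregulin receptors of cardiomyocytes, whose markers had a median log2 fold change of -0.17. It was negative for 10 of 12 markers, where 49.5% of all tested genes had a positive one. Past the threshold were 0 by edgeR (0.0629% of all tested genes), 1 by DESeq2 (0.426%) and 1 with the replicate block (0.887%). The median log2 ratio of these markers was -0.37 in pair 1 and 0.008 in pair 2. For Erbb2 the ratios were -0.02 and -0.23, and for Erbb4 0.10 and -0.19. The part of cardiomyocyte content in the receptor values was not tested.

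Erbb3 (ENSMUSG00000018166; chromosome 10, 128567523 to 128589652, minus strand), which takes neuregulin in cushion mesenchyme and in neural crest derivatives, was at 11.6 and 12.7 CPM in the wildtype libraries against 13.2 and 10.7 CPM in the mutant ones. The groups overlapped, and the log2 fold change was -0.02 ± 0.19 with an interval of -0.45 to 0.42. The log2 ratio of Erbb3 was 0.18 in pair 1 and -0.25 in pair 2, the same order as for Nrg1, Erbb4 and Ptpn11. Pairs of opposite sign were found in 51.6% of tested genes. Erbb3 is also a marker of Schwann cells and their precursors. Defining genes of that lineage were at or near 0: Foxd3 had 0 reads in every library, and Sox10 had 0 to 3. The 8 markers of that list, Erbb3 left out, summed to 13.4 and 15.6 CPM in the wildtype libraries against 14.4 and 15.7 CPM in the mutant ones.

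Adam17 (ENSMUSG00000052593; chromosome 12, 21323509 to 21373632, minus strand), the sheddase of EGFR ligands, was at 81.4 and 83.6 CPM in the wildtype libraries against 84.2 and 95.3 CPM in the mutant ones. The mutant libraries lay above the wildtype ones, the nearest by less than their counting error. Its log2 fold change was 0.12 ± 0.13, with an interval of -0.18 to 0.42 and an edgeR adjusted p of 0.979.

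Adam19 (ENSMUSG00000011256; chromosome 11, 46055992 to 46147343, plus strand), which processes neuregulins, was at 223 and 208 CPM in the wildtype libraries against 275 and 221 CPM in the mutant ones. Mutant replicate 1 stood above the rest, and mutant replicate 2 lay between the wildtype libraries. Adam19 had a log2 fold change of 0.20 ± 0.14, with an interval of -0.12 to 0.52; it was 0.36 without mutant replicate 2. The ratio of Adam19 to Adam17 RPKM was 2.75 and 2.51 in wildtype and 3.29 and 2.33 in mutant replicates 1 and 2.

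Ptpn11 (ENSMUSG00000043733; chromosome 5, 121130533 to 121191397, minus strand) was at 164 and 189 CPM in the wildtype libraries against 222 and 177 CPM in the mutant ones. As for Adam19, mutant replicate 1 was highest and mutant replicate 2 lay between the wildtype libraries. The log2 fold change of Ptpn11 was 0.18 ± 0.15 with an interval of -0.16 to 0.51 and an edgeR adjusted p of 0.967. It was 0.43 in pair 1 and -0.10 in pair 2.

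**Figure D3:**
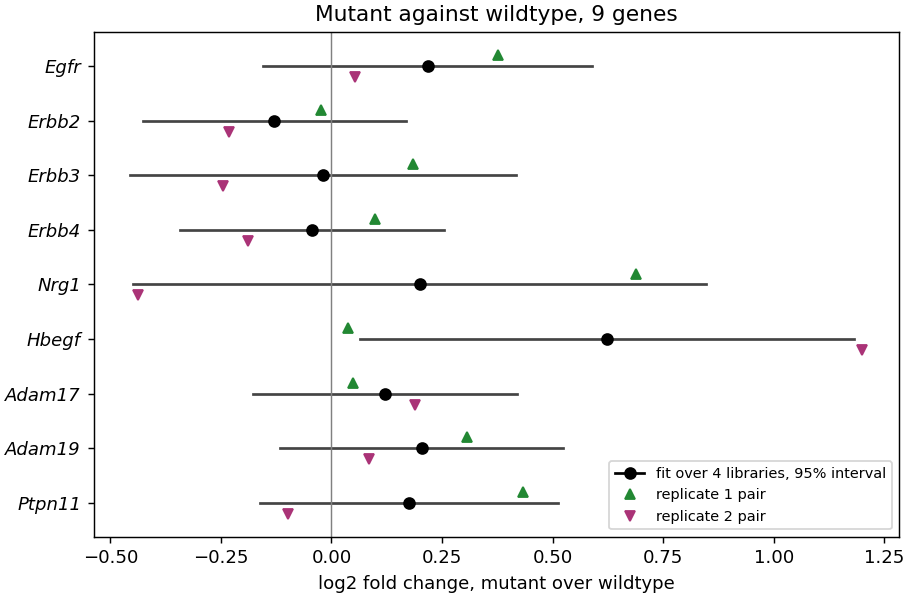
Log2 fold change of mutant over wildtype for the 9 genes: black points are the edgeR fit over 4 libraries with its 95% interval (not adjusted for the number of genes), green triangles the replicate 1 pair and purple triangles the replicate 2 pair. Only the interval of Hbegf, 0.06 to 1.18, leaves out 0, and its pairs lie at 0.04 and 1.20.

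Across the 9 genes, mutant replicate 1 held the highest value for 5 (Egfr, Erbb3, Nrg1, Adam19 and Ptpn11), where 29.6% of tested genes were highest there. The log2 ratio was positive for 8 of 9 in pair 1, Erbb2 being the exception, and for 4 of 9 in pair 2 (Egfr, Hbegf, Adam17 and Adam19); among all tested genes these shares were 49.7% and 50.5%. The median log2 ratio of the 9 was 0.18 in pair 1 and -0.098 in pair 2. The pairs had opposite signs for 4 of 9 (Erbb3, Erbb4, Nrg1 and Ptpn11), against 51.6% of tested genes.

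The genes whose pattern over the 4 libraries was nearest were sought for Hbegf and Egfr, the members of the largest absolute log2 fold change, among 9487 genes of at least 10 CPM. Likeness was the Euclidean distance between log2 CPM values centred on each gene's mean. For Hbegf the nearest were Sgk1, a serum- and glucocorticoid-induced kinase, at a distance of 0.119, AI506816 at 0.199 and Tmem100, a gene of endothelium, at 0.257. Sgk1 had a log2 fold change of 0.63 and Tmem100 of 0.39. For Egfr they were Tep1 at 0.0219, Fanca at 0.0220 and Armcx4 at 0.0246. With only 4 libraries, genes can readily share such a pattern, though the nearest to Hbegf lay farther from it than those nearest to Egfr did.

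The rest of the pathway was described with 6 lists of 99 genes, of which 92 could be tested. By edgeR 0 of 92 passed the threshold, and 0 passed by DESeq2 or with the replicate block. At an unadjusted p under 0.05, 6 were higher and 1 lower, 7.61% of the 92 against 5.78% of all tested genes. The median log2 fold change of the 92 was 0.08, and 60 were positive, where 49.5% of all tested genes were.

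Other ErbB ligands were scarce. Tgfa, the EGFR ligand TGF-alpha, was at 7.46 and 6.94 CPM in the wildtype libraries against 5.37 and 5.51 CPM in the mutant ones, with a log2 fold change of -0.41 ± 0.22. Betacellulin, Btc, which binds EGFR and ERBB4, was at 4.53 and 5.43 CPM in the wildtype libraries against 3.87 and 4.24 CPM in the mutant ones, with a log2 fold change of -0.30 ± 0.26. For both, the mutant libraries lay below the wildtype ones, as for 16.3% of tested genes, with edgeR adjusted p of 0.935 and 0.973. Of the 5 tested genes of this list, 3 had negative and 2 positive log2 fold changes. The list's median was -0.21 over 5 tested genes, and 4 of 9, Areg, Epgn, Nrg3 and Nrg4, named after their values were seen, were too low to test, with 0 to 13 reads per library.

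Shedding enzymes and their regulators (16 of 16 tested) had a median log2 fold change of 0.08, with 0.178 for pair 1 against -0.115 for pair 2. Adam12, a metalloprotease reported to cleave HB-EGF, was at 45.3 and 38.4 CPM in the wildtype libraries against 65.0 and 61.5 CPM in the mutant ones. The Adam12 groups were well apart, and its log2 ratio was 0.52 in pair 1 and 0.68 in pair 2. Its log2 fold change was 0.59 ± 0.15 with an unadjusted p of 0.00307 and an adjusted p of 0.300 by edgeR, or 0.159 with the replicate block and 0.149 by DESeq2. Adamts1, a protease of versican, was at 181 and 163 CPM in the wildtype libraries against 216 and 221 CPM in the mutant ones, with a log2 fold change of 0.34 ± 0.12. Adam10, the sheddase of betacellulin and EGF, was at 0.23 ± 0.17, and Timp3, the tissue inhibitor of ADAM17, at -0.04 ± 0.13.

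Adaptors and the kinase relay (23 of 24 tested) had a median log2 fold change of 0.05. By edgeR 0 of them reached an unadjusted p under 0.05, where 5.78% of all tested genes did. Their median was 0.179 for pair 1 against -0.011 for pair 2. Pik3ca, a catalytic subunit of PI3 kinase, was at -0.01 ± 0.12, Pik3cb, another, at 0.37 ± 0.16, and the docking protein gene Gab2 at 0.23 ± 0.15.

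Attenuators of receptor and Ras signalling (21 of 21 tested) had a median of 0.11. At an unadjusted p under 0.05 by edgeR, 2 were higher, where 3.88% of all tested genes were. Spred2, an inhibitor of Ras signalling, was at 12.3 and 12.9 CPM in the wildtype libraries against 27.2 and 14.6 CPM in the mutant ones. Mutant replicate 1 of Spred2 stood far above the rest, with a log2 ratio of 1.14 in pair 1 and 0.17 in pair 2. Spry4, a Sprouty inhibitor, was at 21.4 and 22.1 CPM in the wildtype libraries against 30.9 and 26.8 CPM in the mutant ones, a log2 fold change of 0.41 ± 0.16 with an edgeR adjusted p of 0.793. The Ras GTPase activators Nf1 and Rasa1 were at 0.10 ± 0.13 and -0.17 ± 0.12.

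Targets of the MAP kinase relay (15 of 16 tested) were centred on a median of 0.19, with 0.37 for pair 1 against 0.09 for pair 2. Myc was at 4.69 and 6.63 CPM in the wildtype libraries against 9.07 and 8.47 CPM in the mutant ones, with a log2 fold change of 0.64 ± 0.24 and an edgeR adjusted p of 0.748. Fos, an immediate early transcription factor, was at 0.53 ± 0.30, Jun, its partner, at 0.25 ± 0.19 and the cyclin gene Ccnd1 at -0.05 ± 0.14.

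Hyaluronan and heparan sulphate partners (12 of 13 tested) had a median of -0.01. The list mixes matrix molecules, cell-surface molecules and enzymes of hyaluronan, and includes stores for HB-EGF. Vcan, versican, was at 2306 and 1949 CPM in the wildtype libraries against 1912 and 1795 CPM in the mutant ones, a log2 fold change of -0.20 ± 0.15. Hspg2, perlecan, was at 0.18 ± 0.16 and Gpc3, a glypican, at 0.33 ± 0.18. Has3, a hyaluronan synthase, measured 2.34 CPM in both wildtype libraries and 3.17 and 4.94 CPM in mutant replicates 1 and 2, with an edgeR adjusted p of 0.823.

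**Figure D4:**
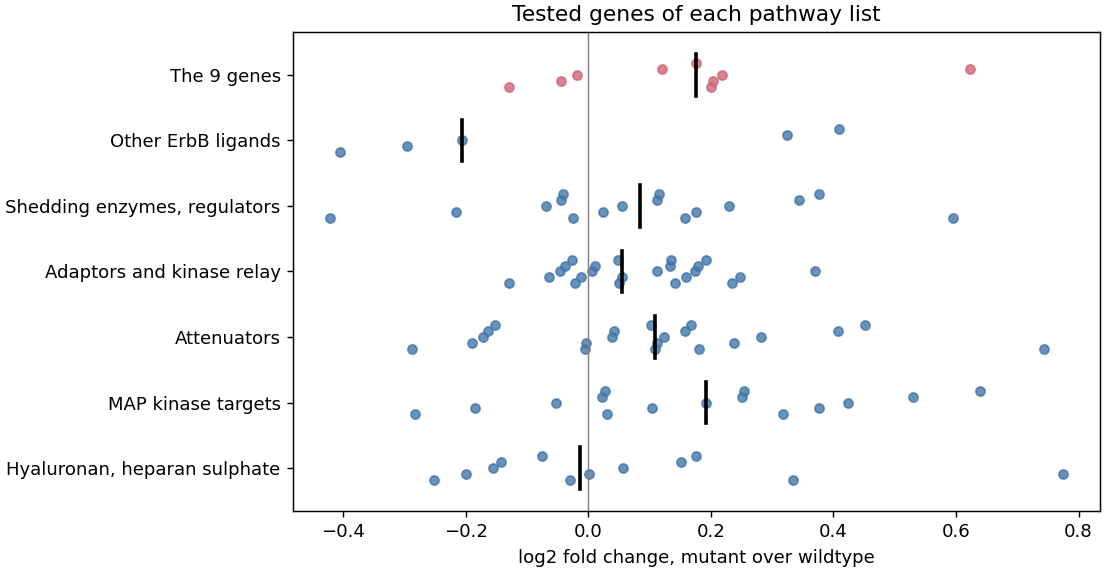
Log2 fold change of mutant over wildtype for the 9 genes (red) and for the tested genes of each of 6 pathway lists (blue); each point is a gene and each black bar the list's median. Medians run from -0.21 for other ErbB ligands to 0.19 for MAP kinase targets, and 0 genes of the lists passed the threshold.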

How the data were processed

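Total RNA, depleted of ribosomal RNA and made into ScriptSeq V2 libraries per the labels' protocols, was sequenced from 2 wildtype and 2 mutant cushion samples. The authors deposited raw read counts, one row a gene symbol. The submitters' processing notes name TopHat2 with Bowtie2, SAMtools, HTSeq, edgeR and the build mm10, without versions; the annotation used is not stated there. Rows outside genes (no feature 51.8% to 54.4%, not unique 16.1% to 17%, ambiguous 0.187% to 0.21% of tallied reads) were left out. The authors' deposited comparison table holds log2 fold changes (wildtype over mutant, given here reversed), log2 CPM, a likelihood ratio score, unadjusted and adjusted p-values and, for rows past 0.05, a fold change ratio.

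The test was that of edgeR 4.0.16 under R 4.3.3 (TMM, filterByExpr, quasi-likelihood F test for genotype, Benjamini-Hochberg over 14316 genes, threshold 0.05), on all 4 libraries. CPM used TMM-scaled totals, log2 CPM a prior count of 2, and RPKM the union of GENCODE M21 exons. Standard errors are the log2 fold change divided by the root of F. Alternatives were DESeq2 1.42.0, limma-voom 3.58.1, other scalings and filters, the replicate block and each library left out; fits were tested on simulated counts. The series design text speaks of paired samples from littermates, so numbers were read as pairs. With group means removed, wildtype and mutant libraries sharing a number correlated at 0.144 across genes. With 2 libraries per group, both pairs must give the same value, and the swapped pairing the same size with opposite sign. That weak correlation therefore cannot settle whether the numbers mark true pairs. The labels do not say what separates replicates. The mutant libraries came from different embryos, as Ddx3y had 0 reads in mutant replicate 1 and 3384 in mutant replicate 2. For the wildtype libraries this is not known, so p-values reflect library-to-library spread that may be partly technical.

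The 9 genes and the lists were chosen with earlier results of these data known. Named genes were the 9, Smarca4, Nfatc1 and, per pathway list, genes past the threshold in either edgeR fit, the 2 of highest mean CPM and the 2 of lowest p; nearest patterns were the 3 closest genes for 2 members. Summary values for the marker lists of endocardium, mesenchyme, cardiomyocytes, leukocytes and Schwann cells are given in the text, without naming every marker. Epicardial (7 tested), smooth muscle (5) and epithelial (4) markers had 0 genes past the threshold by edgeR (0.0629% of all tested genes) and 0 by DESeq2 (0.426%). At an unadjusted p under 0.05 by edgeR, each list had 1, where 5.78% of all tested genes passed. Krt19, which is in both the epicardial and the epithelial list, was that gene in both. Some genes that the naming rule picks are not reported here.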

Additional observations from a re-analysis of the deposited data

How the results depend on the processing

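The count of members past the threshold was 0 in all but 1 of 12 alternative settings; leaving out a library gave 0 to 1, the 1 being Hbegf without mutant replicate 1. Over all genes the count of 9 became 127 with the replicate block, 236 without a low count filter, 61 with DESeq2 and 171 with the likelihood ratio test, and 3 (without wildtype replicate 2) to 443 (without mutant replicate 2) with a library left out; the cause was not tested. The block changed no call among the 9 genes or the pathway lists. Egfr, Erbb2, Hbegf, Adam17 and Adam19 kept their direction in all 12 settings. Erbb3 reversed with upper-quartile scaling (2.462e-05) and ran from -0.18 to 0.12 with a library left out, Erbb4 from -0.13 to 0.037, Nrg1 from -0.30 to 0.55 and Ptpn11 from -7.068e-04 to 0.33. Hbegf ran from 0.28 to 0.92, with adjusted p from 3.904e-04 to 0.995 over all settings. Depth limits Nrg1 most, at 88 to 253 reads.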
